A study of Homo sapiens with 4 samples.

Results

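Heat shock proteins and J-domain (DNAJ) proteins are the cell's main protein-folding machines, and this account gives the chromatin accessibility at their genes in a human breast cancer cell line with and without a deletion of CECR2. The members were peaks of the deposited count table inside a protein-coding gene, or no more than 5 kb from one of its ends, where the gene's symbol starts with HSPA, HSPB, HSPD, HSPE, HSPH, HSP90 or DNAJ. They numbered 404 of 190348 peaks and belonged to 75 of 20037 protein-coding genes. Of these peaks, 395 had enough counts for the test and 9 did not. The symbol rule also took 4 genes by name alone: HSPBP1 and HSPBAP1, which encode partners of other chaperones, and the readthrough genes HSPE1-MOB4 and DNAJC25-GNG10.

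In ATAC-seq a hyperactive Tn5 transposase inserts sequencing adapters where chromatin is open. The cells were LM2, a line derived from MDA-MB-231 that metastasises to the lung more readily than its parent. The groups were a nontargeting control guide and a CECR2 deletion made with the guide sg1, each with 2 libraries of 50000 cells and all from cells grown with puromycin. CECR2 encodes a bromodomain protein of a chromatin remodelling complex. Only 1 guide was used, and no source says whether replicates came from separate cultures, so p-values here reflect how far these libraries differ among themselves, which may be only technical.

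HSP70 proteins (HSPA genes) bind and release unfolded segments of proteins in a cycle driven by ATP. J-domain proteins deliver substrates to them and start ATP hydrolysis, HSP110 proteins (HSPH1, HSPA4, HSPA4L) exchange the nucleotide, and HSP90 proteins finish the folding of many kinases and receptors. The chaperonin HSPD1 and its lid HSPE1 enclose proteins in mitochondria, and small heat shock proteins (HSPB genes) hold unfolded proteins without ATP. Under heat or other protein damage the transcription factor HSF1 binds heat shock elements, inverted repeats of the unit GAA, in the promoters of the inducible members. The chaperones of the endoplasmic reticulum (ER) are instead induced through ER stress elements.

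The promoter windows below, 250 bases before to 50 after the gene's start, are RefSeq sequences of GRCh38.p14, and 68 of the 75 genes had at least 1 window. The first group shows genes whose peaks were higher in sg1. Capitals mark each match to the heat shock element of a pair of units, GAANNTTC or TTCNNGAA, each of which is its own reverse complement, so that both strands are covered. HSPB1 lies at chr7:76302423-76302722 on the plus strand, HSPB8 at chr12:119178681-119178980 on the plus strand, HSPA9 at chr5:138575352-138575651 on the minus strand and DNAJB6 at chr7:157336754-157337053 on the plus strand.
HSPB1: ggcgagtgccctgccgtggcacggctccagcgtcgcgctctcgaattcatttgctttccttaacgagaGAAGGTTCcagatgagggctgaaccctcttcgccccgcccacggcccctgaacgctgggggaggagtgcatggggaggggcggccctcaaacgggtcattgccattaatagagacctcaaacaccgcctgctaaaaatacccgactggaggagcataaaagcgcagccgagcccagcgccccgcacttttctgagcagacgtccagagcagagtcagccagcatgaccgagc
HSPB8: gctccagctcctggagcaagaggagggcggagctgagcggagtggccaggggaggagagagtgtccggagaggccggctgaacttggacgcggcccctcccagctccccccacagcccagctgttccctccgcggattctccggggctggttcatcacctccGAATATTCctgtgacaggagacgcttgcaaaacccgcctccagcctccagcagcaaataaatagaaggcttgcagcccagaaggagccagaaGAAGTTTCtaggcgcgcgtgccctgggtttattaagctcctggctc
HSPA9: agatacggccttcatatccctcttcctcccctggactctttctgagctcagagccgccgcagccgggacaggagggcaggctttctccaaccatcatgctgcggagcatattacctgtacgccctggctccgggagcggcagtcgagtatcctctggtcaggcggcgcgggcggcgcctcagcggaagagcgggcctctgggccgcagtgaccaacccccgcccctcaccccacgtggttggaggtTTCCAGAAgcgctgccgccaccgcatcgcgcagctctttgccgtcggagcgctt
DNAJB6: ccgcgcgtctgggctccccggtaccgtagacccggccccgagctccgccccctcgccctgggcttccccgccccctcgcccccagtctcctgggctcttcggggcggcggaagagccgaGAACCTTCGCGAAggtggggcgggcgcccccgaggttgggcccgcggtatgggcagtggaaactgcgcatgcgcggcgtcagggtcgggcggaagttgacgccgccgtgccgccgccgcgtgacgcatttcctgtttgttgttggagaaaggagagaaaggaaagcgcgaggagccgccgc

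The second group shows windows with the same element whose peaks were not higher in sg1. HSPA8 lies at chr11:123062087-123062386 on the minus strand, HSPA1A at chr6:31815293-31815592 and HSPA1B at chr6:31827488-31827787, both on the plus strand. The windows of HSPA1A and HSPA1B are identical at 277 of 300 aligned bases (92.3%), so reads could be split between these copies and their counts are uncertain.
HSPA8: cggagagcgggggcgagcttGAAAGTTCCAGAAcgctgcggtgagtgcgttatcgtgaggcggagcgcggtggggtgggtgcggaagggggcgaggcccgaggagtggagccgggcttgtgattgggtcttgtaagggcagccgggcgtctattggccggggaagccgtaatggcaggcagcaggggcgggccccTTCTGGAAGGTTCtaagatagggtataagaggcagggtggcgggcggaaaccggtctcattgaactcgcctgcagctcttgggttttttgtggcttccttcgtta
HSPA1A: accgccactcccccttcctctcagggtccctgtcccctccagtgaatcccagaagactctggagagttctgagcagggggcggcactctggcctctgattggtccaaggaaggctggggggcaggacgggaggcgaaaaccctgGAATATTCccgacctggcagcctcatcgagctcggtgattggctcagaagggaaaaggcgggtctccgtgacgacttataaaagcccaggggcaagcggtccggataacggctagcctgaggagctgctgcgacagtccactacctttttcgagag
HSPA1B: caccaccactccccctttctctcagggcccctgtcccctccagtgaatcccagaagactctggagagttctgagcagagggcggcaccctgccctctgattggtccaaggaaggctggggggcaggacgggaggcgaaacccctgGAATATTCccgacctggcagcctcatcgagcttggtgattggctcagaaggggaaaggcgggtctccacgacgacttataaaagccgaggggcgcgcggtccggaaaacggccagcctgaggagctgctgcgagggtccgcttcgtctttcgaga

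The third group shows both chaperone windows that held an ER stress element, CCAAT followed after 9 bases by CCACG or its reverse complement, in capitals. This element was added to the search after the accessibility values had been seen. HSPA5 lies at chr9:125241294-125241593 on the minus strand and HSP90B1 at chr12:103930160-103930459 on the plus strand.
HSPA5: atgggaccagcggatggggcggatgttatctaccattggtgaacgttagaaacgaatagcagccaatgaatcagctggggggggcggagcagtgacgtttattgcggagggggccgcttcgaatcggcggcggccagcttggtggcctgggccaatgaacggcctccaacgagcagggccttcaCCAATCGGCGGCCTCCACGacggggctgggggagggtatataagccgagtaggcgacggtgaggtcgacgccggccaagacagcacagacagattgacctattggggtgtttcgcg
HSP90B1: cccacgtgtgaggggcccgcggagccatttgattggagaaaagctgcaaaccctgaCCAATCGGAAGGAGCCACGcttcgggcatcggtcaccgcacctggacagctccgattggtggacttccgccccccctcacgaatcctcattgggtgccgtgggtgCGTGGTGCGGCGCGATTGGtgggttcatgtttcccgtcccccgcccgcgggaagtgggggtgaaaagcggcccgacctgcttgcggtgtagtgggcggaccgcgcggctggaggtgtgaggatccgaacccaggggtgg

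The deposited counts summed to 25610655 and 18950793 in the control libraries and to 58341297 and 52150389 in the sg1 libraries. After 109 peaks at the start of chromosome 1 had been left out, with 17.9% to 25.4% of each library's counts, sg1 depth was 2.25 times control depth. Depth therefore moved with the group, and its part in the results was not tested. Peak counts do not check a deletion made by a guide: the tallest peak within 1 kb of an end of CECR2 had 3.6 and 3.39 CPM in the controls and 3.35 and 4.18 in sg1. CPM values throughout are depth-normalised counts after edgeR's TMM scaling. All 6 mesenchymal markers of the line (VIM, CD44, AXL, CAV1, ZEB1 and MSN) had a peak at their start, of which AXL was higher in sg1 (0.22, FDR = 0.0151) and MSN lower (-0.56, FDR = 0.000193). Among markers of other cell types, PTPRC, PECAM1, CDH5 and ALB had none, while CD3E, CD14, ESR1 and GATA3 had one; GATA3 was higher (0.76, FDR = 0.000662) and CD3E lower (-0.26, FDR = 0.0145). The part of these shifts in the results was not tested.

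Across the chaperone genes, more peaks were higher in sg1 than lower. By edgeR's quasi-likelihood test at an FDR of 0.05, 66 of 395 tested peaks (16.7%) rose and 40 (10.1%) fell, with a median log2 fold change of 0.12. Over all 184717 tested peaks 11.5% were higher and 16.8% lower, with a median of 0.02. Over the 111904 tested peaks in or within 5 kb of protein-coding genes, 12.4% were higher and 15.4% lower, with a median of 0.04. The groups did not overlap in any of the 106 called chaperone peaks. The same share over all called peaks was not counted, so this separation adds no support beyond the calls themselves. The risen peaks were long and moved little, with a median length of 748 bases and a median log2 fold change of 0.64, and 16 of them passed 2-fold. The fallen peaks were short and moved more, with a median of 306.5 bases and -1.26, and 23 of them passed 2-fold. Among the risen peaks 31 lay at a chaperone start, against 4 of the fallen. Chaperone peaks at starts had a median length of 887.5 bases, and those inside genes 272. Lengths and fold changes over all called peaks were not counted, so this contrast cannot be read as particular to chaperone genes.

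The split between higher and lower peaks depends on how the libraries are put on one scale. When TMM was computed from peaks at gene ends alone, every log2 fold change moved down by about 0.16, the median over all peaks going from 0.02 to -0.14, and 31 chaperone peaks were higher and 69 lower. The 31 were all among the 66, and the 40 were all among the 69. With DESeq2 the counts were 35 and 19, without sg1 replicate 1 they were 44 and 23, and without sg1 replicate 2 they were 40 and 20. Of the called peaks, 26 higher and 13 lower ones passed with each library left out in turn. Directions below are therefore relative to TMM over all peaks, and the text says which chaperone start peak gains hold under the gene-end scaling.

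Gains outnumbered losses at gene starts. Of 92 tested chaperone peaks within 1 kb of a RefSeq start, 31 were higher and 4 lower, against 22.1% higher and 6.28% lower over all such peaks of protein-coding genes. Among 303 peaks away from the starts of chaperone genes, 35 were higher and 36 lower. Over peaks near protein-coding genes but at the start of none, 10.3% were higher and 17.4% lower. The sets differ, since the 303 keep peaks at starts of neighbouring genes, so these shares are not strictly comparable. Of the 303, peaks within 1 kb of either gene end had 7 higher and 2 lower. Peaks in the flanks had 14 and 12, and peaks inside genes 14 and 22. To give each gene 1 value, its start peak was taken as the tallest peak within 1 kb of its start, or of either gene end for the 7 genes with no window. HSPB3, HSPB7, HSPB9, DNAJB7, DNAJB8, DNAJC5B and DNAJC5G had none. This gave 64 distinct start peaks for 68 genes, 16 of them shared with another gene, of which 24 (37.5%) rose and 4 (6.25%) fell, with a median log2 fold change of 0.17. Over the start peaks of all protein-coding genes 30.9% were higher and 8.37% lower, with a median of 0.16. These shares lie near the background and are not particular to chaperone genes. Under the gene-end scaling 7 were higher and 16 lower.

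**Figure D1:**
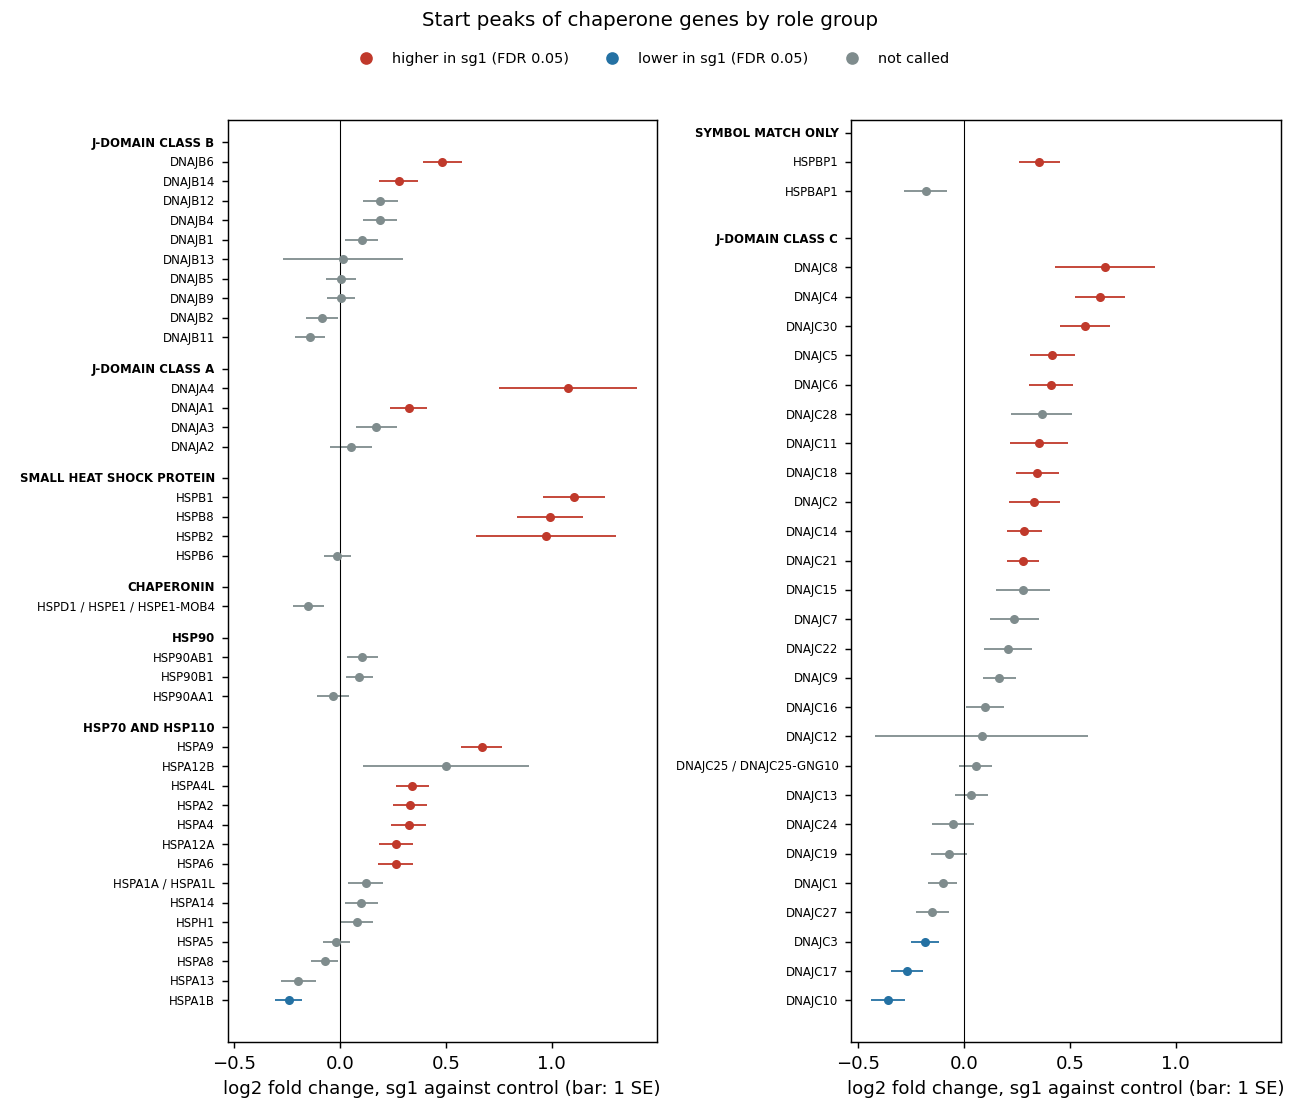
Log2 fold change (sg1 against control, n = 2 libraries a group) of the 64 chaperone start peaks with bars of 1 SE, by role group; red points passed the FDR as higher, blue as lower, grey did not pass. HSPB1, HSPB8, HSPB2 and DNAJA4 lie near or above 1 while HSP90 and chaperonin peaks lie within 0.16 of 0.

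Of all role groups the small heat shock protein genes had the highest median log2 fold change at their starts (0.98). Of 7 genes 4 had a start peak, and those of HSPB1, HSPB8 and HSPB2 rose, while HSPB6 had a log2 fold change of -0.015. HSPB1, encoding HSP27, an abundant small heat shock protein that is induced by heat, had 5.25 and 6.20 CPM at its start peak (chr7:76302190-76303179) in the control libraries and 11.2 and 13.3 CPM in the sg1 libraries. Both sg1 libraries lay well above both controls, and the log2 fold change was 1.11 (SE 0.15, edgeR FDR = 5.04e-07). A further peak inside HSPB1, centred 1.01 kb from its 5′ end, also rose by 0.83 (FDR = 0.00123), and neither of the other 2 tested peaks passed.

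HSPB8, which works with the co-chaperone BAG3 in the removal of misfolded proteins by autophagy, had 4.47 and 5.61 CPM at its start in the controls and 10.1 and 9.74 CPM in sg1. The groups did not overlap, and the log2 fold change was 0.99 (SE 0.16, edgeR FDR = 9.02e-06). All 3 tested peaks of the gene rose, the others being centred at -2.43 kb (0.98, FDR = 0.000832) and 0.88 kb downstream of the 5′ end (2.54 against 6.45 CPM on average, FDR = 8.58e-06). HSPB2, a muscle member, was far weaker: its peak held 0.729 and 1.56 CPM in the controls and 2.46 and 1.85 CPM in sg1, a log2 fold change of 0.97 (edgeR FDR = 0.0256). HSPB2 lost its call with DESeq2 (FDR = 0.184), under the gene-end scaling (FDR = 0.061), without control replicate 1 (FDR = 0.376) and without sg1 replicate 1 (FDR = 0.237), whereas the start peaks of HSPB1 and HSPB8 kept theirs under every setting run. HSPB3, HSPB7 and HSPB9 had no start peak, but a peak at the far end of HSPB7 rose by 0.69 (FDR = 0.00404) and one at the far end of HSPB3 by 1.24 (FDR = 0.0359). Both calls rested on single libraries, since without sg1 replicate 2 the FDR was 0.141 and 0.269, and without control replicate 1 it was 0.0697 and 0.252; for HSPB3 it was 0.0722 without sg1 replicate 1.

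In the HSP70 and HSP110 group 6 of 14 start peaks rose, 1 fell and 7 did not pass, against 30.9% higher and 8.37% lower over all start peaks. HSPA9, the mitochondrial HSP70 also known as mortalin, led with 14.8 and 16.5 CPM in the controls and 23.4 and 26.3 CPM in sg1. The groups stood clearly apart, with a log2 fold change of 0.67 (SE 0.10, edgeR FDR = 2.17e-06). A weaker peak of HSPA9 at -4.05 kb from the start rose by 0.68 (FDR = 0.0226), but it did not pass without either sg1 library (FDR = 0.112 and 0.114) or without control replicate 2 (FDR = 0.0886).

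The nucleotide exchange factors HSPA4 and HSPA4L rose by less. HSPA4 had 26.0 and 23.9 CPM in the controls and 31.9 and 30.8 CPM in sg1, a log2 fold change of 0.32 (edgeR FDR = 0.00257). HSPA4L had 30.4 and 36.9 CPM in the controls and 42.0 and 42.8 CPM in sg1, a log2 fold change of 0.34 (edgeR FDR = 0.00108). HSPA2, a testis-rich HSP70, had 27.1 and 30.2 CPM against 34.1 and 37.8 CPM, a log2 fold change of 0.33 (FDR = 0.00189), and the atypical HSPA12A rose by 0.26 (FDR = 0.0116). HSPA6, an HSP70 gene that is strictly heat-inducible, rose by 0.26 (FDR = 0.0153). With DESeq2 HSPA6 (FDR = 0.0843) and HSPA12A (FDR = 0.0606) did not pass. Leaving out sg1 replicate 2 ended the calls of HSPA2 (FDR = 0.0744), HSPA6 (0.226) and HSPA12A (0.183). Leaving out control replicate 1 ended those of HSPA4L (FDR = 0.0593) and HSPA6 (0.0932), and leaving out control replicate 2 that of HSPA12A (0.0962). Of the 6 risen start peaks of this group only HSPA9 was still called under the gene-end scaling.

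The start peaks of HSPA1A, HSPA1B, HSPA8 and HSPH1 were not among the gains. HSPA1B, a main stress-inducible HSP70 gene, was the fallen start peak of the group: 60.8 and 64.0 CPM in the controls and 51.6 and 53.8 CPM in sg1. Its groups did not overlap, and the log2 fold change was -0.24 (SE 0.063, edgeR FDR = 0.00353), without a call when sg1 replicate 1 was left out (FDR = 0.116). Its near-copy HSPA1A shares a peak with the divergent gene HSPA1L, which had 24.6 and 26.8 CPM in the controls and 26.5 and 29.3 CPM in sg1 and did not pass (0.12, FDR = 0.304). The constitutive HSPA8 (HSC70) had 59.6 and 59.0 CPM against 57.5 and 55.2 CPM (-0.073, FDR = 0.409), and HSPH1 had a log2 fold change of 0.079 (FDR = 0.456).

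No start peak of the HSP90 and chaperonin genes passed the test. HSP90AB1, the constitutive cytosolic HSP90, had 34.3 and 33.3 CPM in the controls and 37.4 and 35.5 CPM in sg1 (log2 fold change 0.11, edgeR FDR = 0.302), and the peak over its window with heat shock elements had -0.034 (FDR = 0.873). HSP90AA1, its inducible counterpart, had -0.033 at its tallest start peak, which it shares with WDR20, and 0.056 at the peak over its window with heat shock elements (FDR = 0.648). The peak between HSPD1 and HSPE1, which share a promoter in opposite directions, had 38.4 and 41.0 CPM in the controls and 36.9 and 34.4 CPM in sg1 (-0.15, FDR = 0.123). Both sg1 values lay below both controls there, and under the gene-end scaling this peak was called lower (-0.31, FDR = 0.00117). Of 21 tested peaks in and around the HSP90 genes, none was higher and 2 were lower, against 11.5% and 16.8% over all peaks; both losses were in the flanks, one near HSP90AB1 (-0.90, FDR = 0.00881) and one near HSP90AA1 (-0.63, FDR = 0.0349). Neither passed without control replicate 1 (FDR = 0.107 and 0.501) or without sg1 replicate 2 (FDR = 0.123 and 0.0894), and the HSP90AA1 peak did not pass without sg1 replicate 1 (FDR = 0.273).

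**Figure D2:**
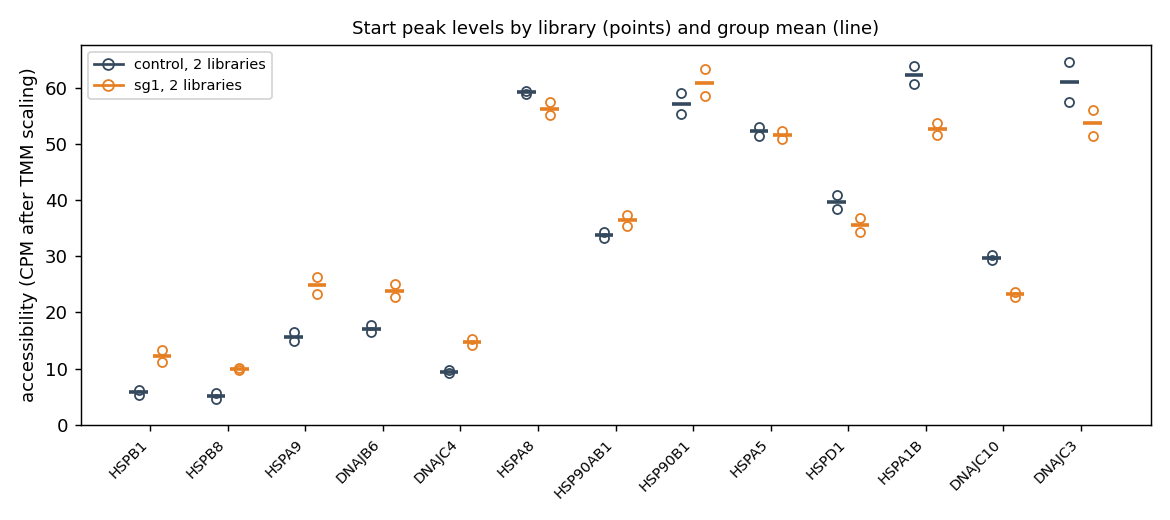
Accessibility (CPM after TMM scaling, y axis from 0) at the start peaks of 13 chaperone genes; open points are the 4 libraries and lines the means of the 2 libraries of a group. The sg1 points of HSPB1, HSPB8, HSPA9, DNAJB6 and DNAJC4 lie above both controls, those of HSPA1B, DNAJC10 and DNAJC3 below, and HSPA5 and HSP90B1 overlap.

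J-domain proteins of class A, the general partners of HSP70, had 2 of 4 start peaks higher and none lower. The shares over all start peaks were 30.9% and 8.37%. DNAJA1 had 22.0 and 23.4 CPM in the controls and 29.7 and 27.0 CPM in sg1, a log2 fold change of 0.32 (edgeR FDR = 0.00424), at a peak shared with APTX. It lost its call under the gene-end scaling (FDR = 0.157) and without sg1 replicate 1 (FDR = 0.12). DNAJA4 had a weak start peak with 0.729 and 1.44 CPM against 2.01 and 2.41 CPM, a log2 fold change of 1.08 (FDR = 0.012, DESeq2 FDR = 0.113), which held under the gene-end scaling (FDR = 0.0304) but not without control replicate 1 (FDR = 0.227) or sg1 replicate 2 (FDR = 0.106).

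Class B had 2 of 10 start peaks higher and none lower, against 30.9% and 8.37% over all start peaks. DNAJB6, a strong suppressor of protein aggregation, had 16.6 and 17.7 CPM in the controls and 22.7 and 25.1 CPM in sg1. All sg1 values lay above the controls, with a log2 fold change of 0.48 (SE 0.094, edgeR FDR = 0.000169), and the call held under the gene-end scaling and with DESeq2. DNAJB14, an ER membrane protein, rose by 0.28 (FDR = 0.021, DESeq2 FDR = 0.111), and not without sg1 replicate 2 (FDR = 0.284). The DNAJB14 call was also lost under the gene-end scaling (FDR = 0.365). DNAJB1 (HSP40), the main heat-inducible J-domain protein, did not pass at its tallest start peak, which it shares with TECR (30.3 and 32.2 against 33.8 and 33.1 CPM, 0.10, FDR = 0.339). The peak over its windows with heat shock elements, at chr19:14517791-14518875, had 25.4 and 23.2 CPM in the controls and 28.8 and 30.2 CPM in sg1 and rose by 0.27 (FDR = 0.0124). It was not called under the gene-end scaling (FDR = 0.334). This last peak did not pass with DESeq2 (FDR = 0.0682), without control replicate 2 (FDR = 0.0685) or without sg1 replicate 2 (FDR = 0.12).

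Class C, a diverse set of J-domain proteins with specialised partners, had 10 of 26 start peaks higher and 3 lower. These counts lie near the 30.9% and 8.37% over all start peaks. The fallen ones were DNAJC3 and DNAJC10, given below with the ER genes, and DNAJC17. DNAJC17 had a log2 fold change of -0.27 (edgeR FDR = 0.00813, DESeq2 FDR = 0.0549) at a peak shared with ZFYVE19. DNAJC4 had 9.24 and 9.65 CPM in the controls and 14.2 and 15.3 CPM in sg1, a log2 fold change of 0.64 (SE 0.12, edgeR FDR = 8.27e-05). DNAJC30, a mitochondrial protein, had 12.5 and 10.1 CPM against 15.5 and 18.4 CPM, a log2 fold change of 0.57 (FDR = 0.000365), at a peak shared with BUD23. These calls held under the gene-end scaling, and they were the only ones of the 10 that did. The other risen start peaks were those of DNAJC2, DNAJC5, DNAJC6, DNAJC8, DNAJC11, DNAJC14, DNAJC18 and DNAJC21, with log2 fold changes from 0.28 to 0.67. With DESeq2 the calls of DNAJC2, DNAJC8, DNAJC11, DNAJC14 and DNAJC18 were lost (FDR from 0.0561 to 0.204). Without control replicate 1 class C had 6 start peaks higher, without sg1 replicate 1 it had 4 (DNAJC4, DNAJC5, DNAJC6 and DNAJC30), and without sg1 replicate 2 it had 6. Of the symbol matches, HSPBP1, a nucleotide exchange factor of HSP70, rose by 0.36 (FDR = 0.00518). This call was lost under the gene-end scaling (FDR = 0.127) and without sg1 replicate 2.

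The ER list was chosen by hand and is not complete. It held HSPA5, HSPA13, HSP90B1, DNAJB9, DNAJB11, DNAJC1, DNAJC3 and DNAJC10, and not DNAJB14, whose start peak rose (0.28). None of the 8 listed start peaks rose and 2 fell, against 30.9% higher and 8.37% lower over all start peaks. Their median log2 fold change was -0.12, against 0.16 over all start peaks. These values hold for the listed genes and not for ER chaperones as a class. DNAJC10 (ERdj5), a reductase that clears misfolded proteins, had 29.4 and 30.2 CPM in the controls and 23.6 and 22.8 CPM in sg1, a log2 fold change of -0.36 (SE 0.081, edgeR FDR = 0.000988). DNAJC3 (P58IPK), an inhibitor of the stress kinase PERK, had 57.6 and 64.8 CPM against 51.4 and 56.1 CPM, a log2 fold change of -0.18 (FDR = 0.0375, DESeq2 FDR = 0.139). In both genes each sg1 value lay below both controls, but DNAJC3 did not pass without control replicate 2 (FDR = 0.268), sg1 replicate 1 (FDR = 0.46) or sg1 replicate 2 (FDR = 0.0611). HSPA5 (BiP), the HSP70 of the ER, had 53.1 and 51.5 CPM in the controls and 52.4 and 51.0 CPM in sg1, which overlap (-0.017, FDR = 0.872). HSP90B1 (GRP94) had 59.1 and 55.4 against 63.4 and 58.7 CPM (0.090, FDR = 0.313), and DNAJB9 had 46.0 and 46.0 against 44.8 and 47.5 CPM (FDR = 0.97). Under the gene-end scaling 6 of the 8 were lower and none higher.

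Over all 53 tested peaks of the ER genes, 2 were higher and 10 lower, against 11.5% and 16.8% over all peaks, so the share of losses is near the background. At HSPA5 itself the start did not pass while the far end of the gene fell. The peak centred 7.58 kb from the 5′ end had 20.9 and 23.9 CPM in the controls and 14.0 and 13.8 CPM in sg1, a log2 fold change of -0.68 (SE 0.098, edgeR FDR = 1.69e-06). A smaller peak beside it fell by 1.20 (FDR = 0.00632, DESeq2 FDR = 0.0671, and 0.0702 without sg1 replicate 2). DNAJC3 had 4 of 9 tested peaks lower and none higher. A peak 33.4 kb into DNAJC3 had 1.17 and 1.63 CPM in the controls and 0.588 and 0.330 CPM in sg1, a log2 fold change of -1.57 (FDR = 0.00462, DESeq2 FDR = 0.0501, and 0.102 without sg1 replicate 2). Another peak 47.3 kb into it had 22 and 15 raw counts in the controls but 1 and 1 in the deeper sg1 libraries. Per count of depth that is a control-to-sg1 ratio of 43.1, with an exact 95% interval from 11.1 to 369 that covers counting error only; the peak was named after its values were seen. DNAJC1, an ER membrane J-domain protein, had 3 lower peaks and 1 higher of 19, all inside the gene. None of these calls held with each library left out in turn: the higher peak had an FDR of 0.0862 to 0.188, and the lower ones had up to 0.255 without control replicate 1, 0.347 without control replicate 2, 0.212 without sg1 replicate 1 and 0.328 without sg1 replicate 2. With DESeq2 1 of the 4 passed (FDR = 0.0344).

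The heat-inducible list was also chosen by hand and is not complete. It held HSPA1A, HSPA1B, HSPA6, HSPA8, HSPB1, HSPD1, HSPE1, HSPH1, HSP90AA1, DNAJA1 and DNAJB1. It took in HSPA8, called constitutive above, and not DNAJB4, whose start peak did not pass (0.19, edgeR FDR = 0.0808). The listed genes did not move as one. Of their 10 distinct start peaks HSPB1, DNAJA1 and HSPA6 rose, HSPA1B fell and 6 did not pass. Over all start peaks 30.9% were higher and 8.37% lower, so these counts lie near the background. DNAJB1 and HSP90AA1 were scored at their tallest start peaks. Over their heat shock elements the DNAJB1 peak rose (0.27, edgeR FDR = 0.0124) and the HSP90AA1 peak did not pass (0.056, FDR = 0.648). The median of 0.09 turned to -0.07 under the gene-end scaling. Under that scaling HSPB1 alone was higher and 4 were lower (HSPA1B, HSPA8, HSP90AA1 and the HSPD1/HSPE1 peak). The mitochondrial list held HSPA9, HSPD1, HSPE1, DNAJA3, DNAJC11, DNAJC15 and DNAJC19. It left out DNAJC30, whose start peak rose under both scalings. Of the 6 distinct start peaks of this list, HSPA9 and DNAJC11 rose and none fell, to be read beside the same 30.9% and 8.37%. Under the gene-end scaling HSPA9 was the only higher one of the 6, and the peaks of DNAJC19 and HSPD1/HSPE1 were lower. The DNAJC11 call (FDR = 0.048) was also lost with DESeq2 (0.204), without control replicate 1 (0.244), without sg1 replicate 1 (0.291) and without sg1 replicate 2 (0.113).

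Heat shock elements were frequent in these windows. The 8-base element stood in 23 of 89 chaperone windows (25.8%), against 11.6% of 22199 windows of all protein-coding genes. It stood in 10 of 15 windows of the listed heat-inducible genes and in 0 of 7 of the listed ER genes. A longer element of 3 units, in which either 8-base form is extended by NN and a further GAA or TTC in alternation, was found in 7 windows (7.87%, against 0.405% of all). These held the windows of HSPA6, HSPA8, HSPD1, HSP90AA1, HSP90AB1, DNAJA1 and DNAJB6. The ER stress element stood only in the windows of HSPA5 and HSP90B1, 2.25% of the chaperone windows against 0.104% of all.

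Risen and unmoved peaks occurred with and without the element. Windows with the 8-base element lay under 17 distinct tested peaks, of which 9 rose and 1 fell, with a median log2 fold change of 0.27. Windows without it lay under 48, of which 18 rose and 3 fell, with a median of 0.14, and 2 peaks covered windows of both kinds. Start peaks of all protein-coding genes were 30.9% higher and 8.37% lower, but a peak over a window is not always its gene's start peak. Of the 7 peaks over windows of 3 units, those of DNAJA1, DNAJB6 and HSPA6 rose and none fell, with a median of 0.06. As the printed windows show, HSPA8 carries 4 matches in overlapping pairs and HSPB1 only 1, at 182 bases before the start (position -182, the start being 0). HSPB8 has matches at -88 and 4, and HSPA9 one across the start at -4. A match describes letters and not binding.

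Of the 24 risen chaperone start peaks, 20 lay outside the highest level class. When all start peaks were ranked by mean CPM into 4 equal classes, 6 of the 10 chaperone start peaks in the lowest class rose, 7 of 12 in the next, 7 of 16 in the third and 4 of 26 in the highest. The shares over all genes were 24.1%, 38.0%, 37.4% and 24.1%. Of the 4 fallen chaperone start peaks 1 lay in the third class and 3 in the highest. Lower peaks made up 8.08%, 5.5%, 6.06% and 13.8% of the 4 classes over all genes. Losses were thus most frequent in the highest class there too, and their place is not particular to chaperone genes. Pearson's r between log2 level and log2 fold change was -0.57 over the 64 chaperone start peaks and -0.12 over all 12871; these points share libraries and depth, and level enters both measures.

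**Figure D3:**
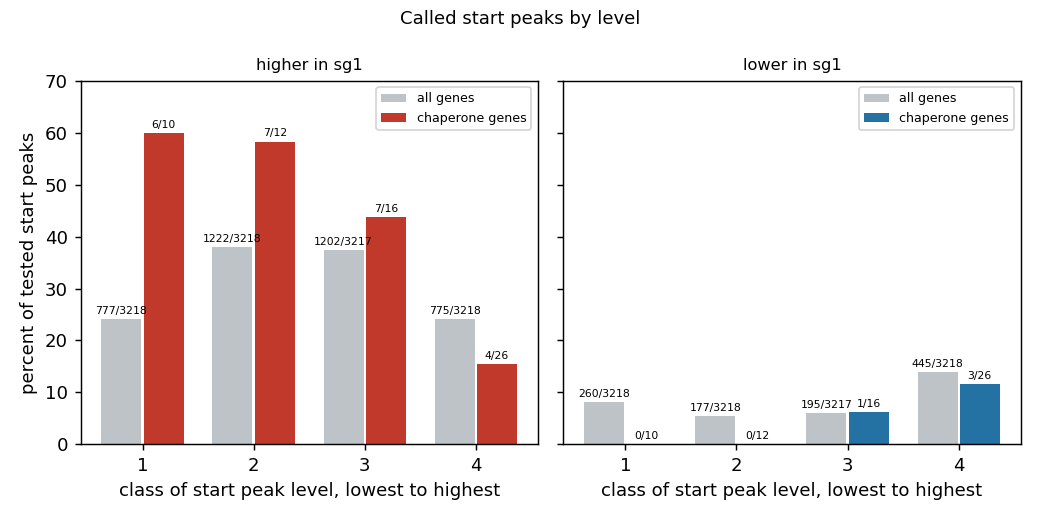
Percent of tested start peaks that were higher (left) or lower (right) in sg1 in each class of mean level, from the lowest (1) to the highest (4), for all genes (grey) and chaperone genes (coloured), with counts above the bars. Chaperone gains go from 6 of 10 in the lowest class to 4 of 26 in the highest.

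Away from starts the largest changes were at short, weak peaks. The greatest gain was at -4.72 kb from the start of DNAJA4 (chr15:78259283-78259574), with 1 and 3 raw counts in the controls and 39 and 59 in sg1. Per count of depth that is a ratio of 10.5, with an exact 95% interval from 3.98 to 39.4 for counting error, and a log2 fold change of 3.35 (edgeR FDR = 9.24e-05). Among peaks with at least 30 scaled counts in the higher group, next came those at DNAJB4 (2.32, FDR = 0.00107) and at the end of DNAJB2 (2.26, FDR = 0.00028). DNAJB2, a neuronal J-domain protein, held 0.146 and 0.587 CPM there in the controls and 1.45 and 1.83 CPM in sg1. Inside DNAJB6 a peak 47.4 kb from the start rose by 1.62 (FDR = 0.00398, DESeq2 FDR = 0.0657), and inside DNAJC13, an endosomal protein, one rose by 1.52 (FDR = 0.002).

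The greatest losses that met the minimum of 30 scaled counts began with the flank of HSPA12B, an endothelial HSP70 relative. Its peak chr20:3730133-3730401 had 1.65 and 1.5 CPM in the controls and 0.181 and 0.254 CPM in sg1, a log2 fold change of -2.85 (edgeR FDR = 1.02e-05). A pair of peaks in the flank of DNAJB5 fell by 2.2 (FDR = 0.000205) and 1.67 (FDR = 0.00188), and a peak upstream of DNAJC5G fell by 2.0 (FDR = 0.000256). Stronger peaks also fell: DNAJC12 had 14.5 and 12.7 CPM at a peak 18.2 kb from its start in the controls and 7.41 and 7.03 CPM in sg1 (-0.92, FDR = 1.31e-06). DNAJC5, a synaptic vesicle chaperone, had 40.2 and 36.2 against 24.4 and 25 CPM at a peak 7.84 kb from its start (-0.63, FDR = 1.02e-07), while its start peak rose by 0.42 (FDR = 0.00332, and 0.0691 without sg1 replicate 2). Both of these, DNAJC12 and DNAJC5, were picked with their values known.

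HSPA12A had the most called peaks of any member gene, 9 higher and 3 lower of 25 tested. Its largest gains under the naming rule were 1.5 (FDR = 0.000573), 1.36 (FDR = 0.0159) and 1.35 (FDR = 0.0132), of which the last pair lost its call with DESeq2 (FDR = 0.144 and 0.118). Without sg1 replicate 1 the second had an FDR of 0.168 and without control replicate 2 one of 0.086, and without sg1 replicate 2 the third had 0.322. The 3 losses lay within 3.0 kb of each other. The strongest, chr10:116771440-116771771, had 6.03 and 5.41 CPM in the controls and 1.85 and 1.47 CPM in sg1, a log2 fold change of -1.78 (SE 0.22, FDR = 1.64e-07). Its neighbours fell by 1.58 (FDR = 5.13e-05) and 1.61 (FDR = 0.00785), the latter without a call when either sg1 library was left out (FDR = 0.12 and 0.0529). Both start peaks of HSPA12A, by contrast, were higher: 0.26 at the taller and 0.36 (FDR = 0.00134) at the one shared with ENO4. Neither was called under the gene-end scaling (FDR = 0.348 and 0.0697).

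DNAJB4, a heat-inducible HSP40 relative, showed a loss next to a gain inside the gene. The peak centred 7.79 kb from its 5′ end had 3.94 and 3.85 CPM in the controls and 1.04 and 0.812 CPM in sg1, a log2 fold change of -2.06 (edgeR FDR = 4.16e-07). The peak at 9.34 kb had 0.146 and 0.326 CPM in the controls and 1.40 and 0.862 CPM in sg1 (2.32), and lost its call without sg1 replicate 1 (FDR = 0.0668). In all, 54 of the 75 genes had a called peak: 28 only higher, 13 only lower and 13 both. The same shares over all protein-coding genes were not counted, and a gene with more peaks has more chances of a call. The other genes with calls in both directions were DNAJC1, DNAJB6 (3 higher, 1 lower of 22), DNAJB1 (3 higher, 1 lower of 15), DNAJC6, DNAJC17, HSPBAP1, HSPB2, DNAJB2, DNAJC5, DNAJC13 and DNAJC18. DNAJC5B had 3 of 13 lower and none higher, but each lost its call without control replicate 1 (FDR = 0.0562, 0.112 and 0.0593) and without sg1 replicate 2 (FDR = 0.095, 0.235 and 0.173). With DESeq2, 2 of them did not pass (FDR = 0.0762 and 0.0874) and the other had no adjusted p; it also failed without control replicate 2 (FDR = 0.184), and without sg1 replicate 1 the first had 0.0889 and the second 0.391.

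**Figure D4:**
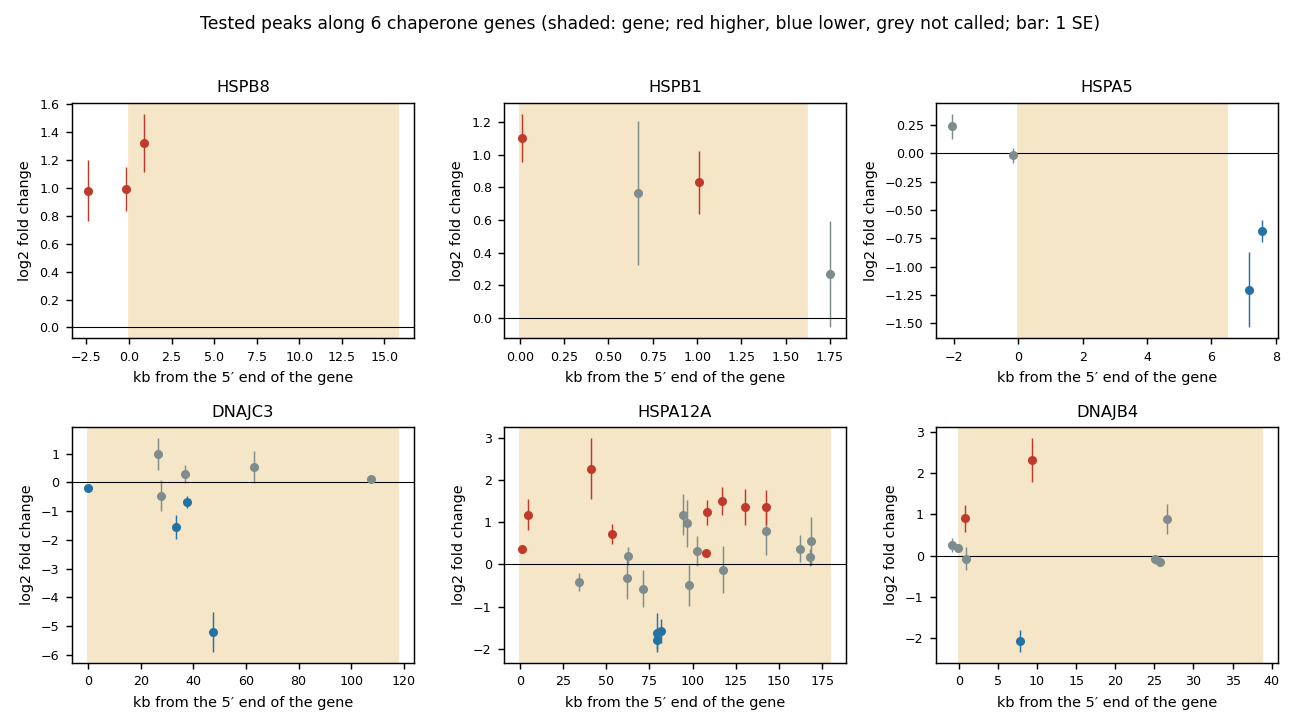
Log2 fold change (y axis; bars 1 SE) of the tested peaks of 6 genes against distance in kb from the 5′ end of the gene (x axis); shading marks the gene, and colours mark peaks called higher (red), lower (blue) or not called (grey). All 3 HSPB8 peaks are higher, the HSPA5 losses lie past the end of the gene, and the 3 HSPA12A losses lie together.

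Some of the gains lay in regions whose other peaks also leaned up, a comparison added after the values had been seen. Peaks of no chaperone gene within 500 kb of the HSPB1 start had a median log2 fold change of 0.35 over 119 peaks, and those around DNAJC30 had 0.47 over 145; chromosome 7, which holds both, had the highest median of 24 chromosomes (0.21). Around HSPB8 only 13 such peaks were tested, with a median of 0.55. Around HSPA9 and DNAJB6 the medians were 0.13 and -0.09, against 0.67 and 0.48 at their starts. Of the 64 chaperone start peaks 46 lay above the median of their neighbours, most of which need not be start peaks. The same share over the start peaks of all genes was not counted. Those had a median of 0.16, against 0.02 over all peaks, so the count cannot be read as particular to chaperone genes. Whether the number of copies of these regions differs between the groups was not tested.

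Genes that work with the chaperones but fall outside the symbol rule were counted the same way. Of 42 listed factors, co-chaperones and cytosolic chaperonin subunits 40 had a start peak, of which 19 were higher and 4 lower, with a median log2 fold change of 0.21, against 30.9% higher and 8.37% lower over all start peaks; under the gene-end scaling 7 were higher and 6 lower. GRPEL1, the nucleotide exchange factor of HSPA9, had 18.7 and 16.1 CPM in the controls and 25.6 and 26.4 CPM in sg1, a log2 fold change of 0.57 (edgeR FDR = 1.3e-05). PTGES3 (p23), an HSP90 co-chaperone, had 22.2 and 18.3 against 29.3 and 30.4 CPM, a log2 fold change of 0.55 (FDR = 1.45e-05). The fallen ones were AHSA1, HSF2, CCT7 and HIKESHI. AHSA1, the activator of the HSP90 ATPase, had 77.0 and 71.5 CPM in the controls and 59.8 and 59.4 CPM in sg1, a log2 fold change of -0.32 (FDR = 0.000121). HSF2, a relative of HSF1, had 43.5 and 43.1 against 32.0 and 33.6 CPM (-0.40, FDR = 5.08e-05), while the peak of HSF1, shared with BOP1, rose by 0.36 (FDR = 0.00122).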

How the data were processed

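ATAC-seq was measured in 4 LM2 libraries. The deposited values are raw counts of transposase cut sites per peak, made by the authors with featureCounts 1.6.0 per the file headers. The tools MACS2 2.2.4, Trimmomatic 0.39, Bowtie2, deepTools 3.1.3, SAMtools, DESeq2 1.32 and CASAVA are also named, per the submitters' processing notes. The sources used here do not give the genome build; 63.3% of GRCh38.p14 gene starts had a peak centre within 500 bp, against 8.28% and 8.05% after shifts of 100 kb, so that gene table was used.

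From these counts, 109 peaks in the first 250 kb of chromosome 1 were left out, leaving 15561701 to 43519018 counts per library. edgeR 4.0.16 (filterByExpr, TMM, quasi-likelihood F test on group, Benjamini-Hochberg over 184717 peaks, FDR 0.05) gave all calls unless another tool is named; its biological coefficient of variation was 8.13%. The SE is the log2 fold change over the square root of F. DESeq2 1.42.0, other scalings, filters, flanks and left-out libraries were alternatives.

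Named peaks are the start peaks of 22 chosen genes, the 8 largest changes per direction with separated groups and at least 30 scaled counts in the higher group, up to 2 start peaks per role group and 4 network genes with the smallest p, and genes with 3 or more called peaks or calls in both directions. Members and lists were chosen with earlier results of these data known. A listed cell type marker is not reported here.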

Additional observations from a re-analysis of the deposited data

How the results depend on the processing

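DESeq2 called 8475 peaks higher and 17866 lower in all, 35 and 19 among chaperone peaks, 14 and 2 among chaperone start peaks, and 2 network start peaks lower. TMM over gene-end peaks gave 12445 higher in all, 31 higher and 69 lower chaperone peaks, 7 and 16 chaperone start peaks, and 7 higher and 6 lower network start peaks. Leaving out 1 library at a time gave, over all peaks, 11147 to 20243 higher and 18888 to 29467 lower, among chaperone peaks 40 to 61 and 20 to 38, among chaperone start peaks 14 to 23 and 2 to 5, and among network start peaks 13 to 20 and 2 to 4. Peaks inside the genes only gave 26 lower, an FDR of 0.01 gave 39 higher, and a further limit of 2-fold gave 16 higher and 23 lower. Same-numbered libraries showed no shared deviation from their group means (correlation -0.00026), which cannot tell whether they were prepared together. With the replicate as a block 66 chaperone peaks were higher and 39 lower. Under TMM over gene-end peaks the balance of gains and losses turned around for chaperone peaks and chaperone start peaks; no named peak that was called changed sign under the alternatives run. Of 49 peak names, 41 kept their side of the threshold with DESeq2 and 36 under TMM over gene-end peaks. Some names share a peak and were counted separately: HSPA1A with HSPA1L, and HSPD1 with HSPE1 and HSPE1-MOB4. The cause of the lost calls was not tested. Depth limits the weak peaks: the 9 untested members and those with under 5 control counts allow only wide ratios.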
